A study of Homo sapiens with 2 samples.

Results

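The RUNX genes RUNX1, RUNX2 and RUNX3 and 7 genes of the ETS family, ERG, FLI1, ETV6, ETS1, ETS2, SPI1 and ELF1, were examined in a map of DNA contacts made with the leukemic fusion protein TCF3::HLF. An interaction was assigned to a gene when 1 of its 5-kb bins overlapped the annotated gene body or the 10 kb on either side of it (hg38, GENCODE release 44). This rule took 211 of the 49245 listed interactions. It used positions only and no contact count, and 6 of the 211 joined a pair of these genes.

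RUNX proteins bind DNA through the Runt domain together with the partner CBFB, and they direct the formation of blood stem cells and the development of lymphoid and myeloid cells. ETS proteins bind sites with a GGAA core through a winged helix-turn-helix domain, and ERG, FLI1, ETV6 and RUNX1 are needed for hematopoietic stem cells. RUNX1 and ETV6 are also joined by the most common translocation of childhood B-cell leukemia. The DNA-binding domain of TCF3::HLF comes from HLF, a bZIP factor of the PAR group whose preferred site is a palindrome of TTAC and GTAA.

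HiChIP with an antibody to TCF3 (E2A) was carried out in HAL-01, a human B-cell leukemia line with t(17;19). The cells express Cas9GFP and had lost wild-type TCF3 through a guide RNA, so that the antibody was left with the fusion, and the knockout line was grown out as a clone. The samples used here were 2 biological replicates of this single condition, with no control arm among them. The authors merged the replicates before calling interactions, so that no value here has a replicate error and no comparison could be tested.

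The contact count of an interaction is the number of read pairs that join its 2 bins, without normalization. Contact counts of the whole list added up to 1268490, with a median of 24 (range, 7 to 615), and those of the RUNX and ETS genes to 5473. Brackets after a contact count give its exact Poisson 95% interval. It covers counting error only and is a lower limit of the error, because duplicate read pairs were kept. Only pairs at distances of 50 kb to 3 Mb that passed a q-value of 0.01 were listed, and a pair that is not listed is not a pair without contacts. Chromosomes 1, 6, 11, 12, 13 and 21, which carry the genes, had between 15.1 and 19.5 listed interactions per Mb against 16.2 over all chromosomes, with median contact counts of 23 to 24. Copy number of the line was not analysed here.

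Exact HLF motifs are printed first, since they mark where letters that the fusion can recognize lie in these genes. Shown are those in bins with at least 5 interactions and, for RUNX2, RUNX3 and ETS2, where no such bin held one, those in the bins with the most interactions among bins with a motif. The search took TTACGTAA and TTATGTAA on both strands. Each line gives 30 bases of hg38 read 5′ to 3′ on the stated strand, with the motif in capitals.
RUNX1, chr21:35052902-35052931, plus strand: ccacttgaatgTTATGTAAtgatatgaaga
RUNX1, chr21:35490289-35490318, minus strand: atctccatgacTTATGTAAccctaattttc
RUNX1, chr21:35513339-35513368, minus strand: agcaatcatccTTATGTAAagaattcctac
RUNX1, chr21:35932097-35932126, minus strand: agatgaagacaTTATGTAAggtggcaggtc
RUNX2, chr6:45449606-45449635, minus strand: aagcatgcttcTTATGTAAcactgcttcat
RUNX3, chr1:24924402-24924431, minus strand: aaacccttgttTTATGTAAaactgagttag
ERG, chr21:38440089-38440118, plus strand: taatatttgacTTACGTAActtccccttgg
FLI1, chr11:128680429-128680458, plus strand: gctccttagaaTTATGTAAttttaagctag
FLI1, chr11:128680463-128680492, plus strand: ggcctcagagaTTATGTAAtaaaatataat
FLI1, chr11:128682927-128682956, plus strand: gagcactgattTTATGTAAccctccctgca
ETS1, chr11:128492633-128492662, minus strand: agggctggatgTTATGTAAtcaacattcta
ETS2, chr21:38807303-38807332, minus strand: caagtaatcacTTATGTAAgattatttaga
ETS2, chr21:38811680-38811709, plus strand: tttcataaatgTTATGTAAgatgctcagaa
ETV6, chr12:11656385-11656414, minus strand: ctcatctcggcTTATGTAAcaatccaccag
ETV6, chr12:11856867-11856896, minus strand: tgtattcccagTTATGTAAaataaatcact
ETV6, chr12:11876120-11876149, plus strand: acaataacaagTTATGTAAgagaggagaca
ETV6, chr12:11878536-11878565, plus strand: ttctccacaccTTATGTAAtcacaggtgaa
ELF1, chr13:41052397-41052426, plus strand: aaactaaaaatTTATGTAAgttcattgtca

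The bins of the RUNX and ETS genes that took part in interactions held 54 such motifs, of which 53 read TTATGTAA. The single TTACGTAA, the full palindrome, lay in ERG. By the annotation of the gene, 49 motifs were intronic, 1 lay in an exon of an ERG transcript and 4 lay outside the gene, among them the 3 of FLI1 printed here, which sit at -13.6 to -11.1 kb from its canonical start, that is upstream of it. The 4 of RUNX1 printed here were intronic only by longer annotated transcripts and lay upstream of the canonical transcript, the reference transcript chosen by the annotation.

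ERG had the most interactions, and SPI1 was the only gene without any. Interactions numbered 54 at ERG, 44 at ETV6, 31 at RUNX1, 25 at ELF1, 19 at FLI1, 16 at ETS1, 11 at RUNX3, 10 at ETS2, 7 at RUNX2 and 0 at SPI1. In all, 9 of the 10 genes had at least 1 interaction, against 64.5% of the 19962 protein-coding genes, and 8 of 10 had at least 10, against 10.1%. Long genes collect more interactions. Of protein-coding genes of at least 100 kb, 31.9% had at least 10 interactions, and of the RUNX and ETS genes of that length RUNX2 alone had fewer. For the median protein-coding gene the values were 1 interaction and 2.23 per 100 kb of the gene with its flanks.

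**Figure D1:**
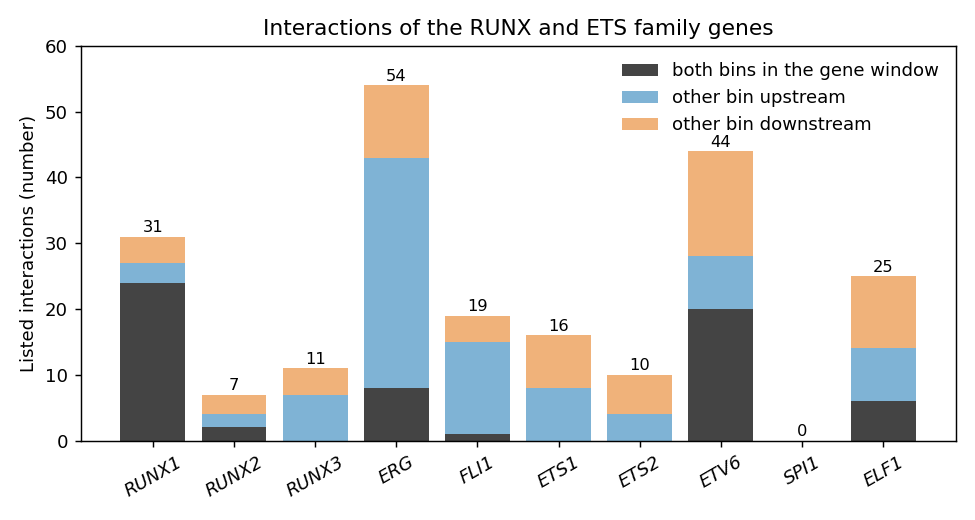
Number of listed interactions (vertical axis) of each of the 10 genes (horizontal axis). Bars are split by the place of the other bin: within the same gene and its 10-kb flanks, upstream or downstream of it in the direction of transcription. ERG has the tallest bar (54) and SPI1 has none, and RUNX1 is the gene with most of its bar inside the gene (24 of 31).

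Relative to length, the order of the genes was different. ETS2 had the highest density with 25.1 interactions per 100 kb, followed by ERG with 17.9, ELF1 with 16.7, ETV6 with 16.6, FLI1 with 12.9, RUNX3 with 12.8 and ETS1 with 10.8. These densities lay between the 88.7th and the 97.4th percentile of protein-coding genes. RUNX1, with 2.51 per 100 kb, and RUNX2, with 1.97 per 100 kb, lay near the median, at the 52.4th and 47.5th percentile. The large number of interactions at RUNX1 thus went with an annotated length of 1217 kb.

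**Figure D2:**
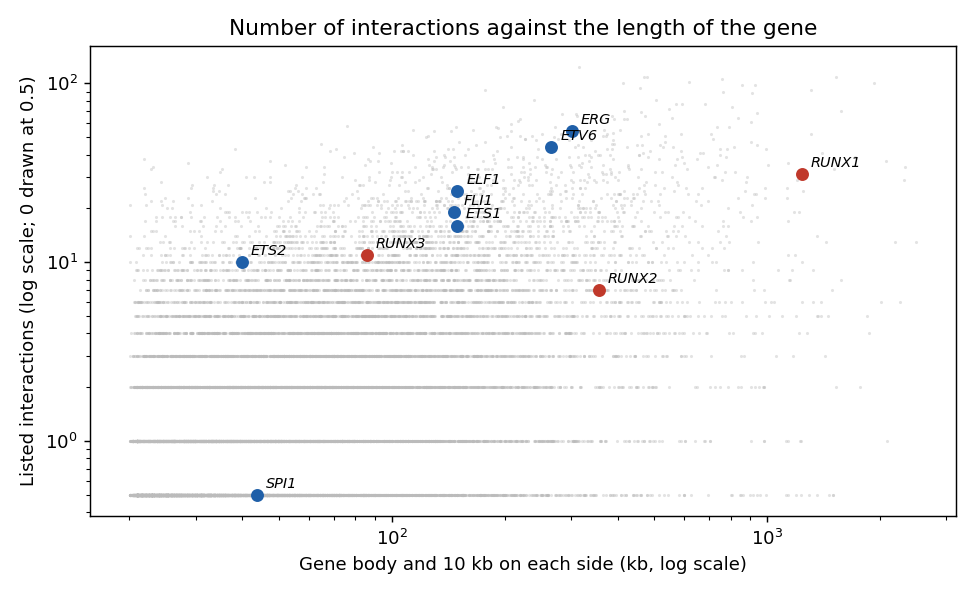
Number of listed interactions (vertical log axis, 0 drawn at 0.5) against the length of the gene body with 10 kb on each side (horizontal log axis, kb). Grey points are protein-coding genes, red points RUNX genes and blue points ETS genes. ERG and ETV6 lie high among genes of similar length, while RUNX1 is the longest of the 10 genes with 31 interactions.

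As a group, the 211 interactions lay close to the whole list in contact count and distance. Their median contact count was 23 (quartiles, 18.5 to 30) against 24 over all interactions, and their median distance was 245 kb against 255 kb. Distances of over 1 Mb made up 10.4%, against 13.7% in the list. A contact count of at least 50 was reached by 9 interactions (4.27%), against 2.83%, and 65.9% had a q-value under 1e-05, against 66.5%. Single bin pairs, with which no neighboring pair was merged, made up 88.2%, against 92.3%.

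**Figure D3:**
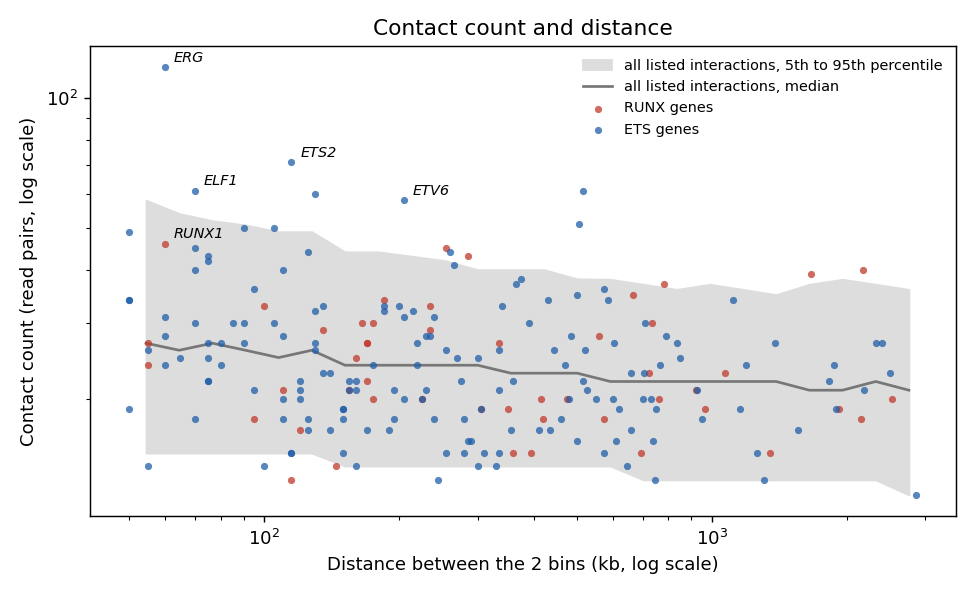
Contact count (vertical log axis, read pairs) against the distance between the bins (horizontal log axis, kb) of the interactions of RUNX genes (red) and ETS genes (blue). The line and grey band give the median and the 5th to 95th percentile of all listed interactions, and the strongest interaction of ERG (118 read pairs) lies far above the band.

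RUNX1 encodes a master regulator of definitive hematopoiesis and is a frequent target of translocations and mutations in leukemia. The gene lies on the minus strand at chr21:34787801-36004667. Both bins lay within the gene and its flanks in 24 of its 31 interactions, 3 led upstream of it and 4 downstream. Contact counts ran from 14 to 46 with a median of 23. The annotated gene is 1217 kb long, and the median distance of its interactions was 305 kb. The share inside the gene was not compared with that of genes of similar length.

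Annotated RUNX1 reaches 955.4 kb farther upstream than the canonical start at position 35049302. Of the 31 interactions, 26 touched the gene upstream of that start only, 5 joined the upstream part to the canonical part and 0 lay within the canonical part. With the canonical transcript and its 10-kb flanks in place of the whole gene, RUNX1 kept 12 interactions, since the flank takes in a busy bin just upstream of the start. The number at RUNX1 thus depends on the annotation.

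The strongest RUNX1 interaction joined chr21:34990001-34995000 to chr21:35050001-35055000 over 60 kb, with 46 contacts [33.7 to 61.4] and a q-value of 9.34e-22. That was 1.77 times the median of listed interactions at the same distance (within 5% or 10 kb, whichever was larger). The second bin was also the busiest of RUNX1 with 9 interactions, and all 9 stayed within the annotated gene, with contact counts from 19 to 46 and distances from 60 to 780 kb. It begins 699 bases upstream of the canonical start and holds the first RUNX1 motif printed above. Nearly as strong were an interaction of 255 kb between bins at 35510001 and 35765001, with 45 contacts [32.8 to 60.2], and one of 2175 kb from 35080001 to a bin at 32905001 in C21orf62-AS1, with 40 [28.6 to 54.5].

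A further 3 RUNX1 bins, which start at 35490001, 35510001 and 35930001, had 6, 6 and 7 interactions. All 4 RUNX1 bins with at least 5 interactions held an HLF motif, against 49.7% of all bins with 5 to 9 interactions. Most RUNX1 interactions involve these 4 bins, and 30 of the 31 had a motif in at least 1 bin, against 66.8% in the list. In contrast, none of the 9 bins that contain a RUNX1 transcript start was a listed bin of an interaction. The bin with the canonical start adjoins the busiest bin. All 3 RUNX1 interactions that were merged with neighboring pairs have a bin there, and the bins merged with them were not searched for starts. The only start of another coding gene at the other end of a RUNX1 interaction was that of DOP1B, 665 kb away, with 35 contacts [24.4 to 48.7]. The longest interaction, of 2530 kb, ran from 35760001 to 38290001 in the potassium channel gene KCNJ15, with 20 contacts [12.2 to 30.9].

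RUNX2, the master regulator of bone formation, lies on chromosome 6 and had the fewest interactions of the 9 listed genes. One bin, chr6:45445001-45450000 in an intron, carried 4 of the 7. From it the strongest interaction reached 1665 kb downstream to 47110001, with 39 contacts [27.7 to 53.3] and a q-value of 2.55e-21, and the longest reached 2150 kb to CD2AP, with 18 [10.7 to 28.4]. The 39 contacts were 1.77 times the median at that distance. A further interaction of 420 kb, with 18 contacts [10.7 to 28.4], joined bins that both hold a start of the neighboring gene SUPT3H. Part of SUPT3H overlaps RUNX2, and the bin within RUNX2 held no RUNX2 start.

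RUNX3, which controls T-cell and NK-cell development, had 11 interactions, and none stayed within the gene. The strongest joined a bin of NCMAP at chr1:24605001-24610000 to chr1:24890001-24895000 in the 10 kb beyond the 3′ end of RUNX3, over 285 kb, with 43 contacts [31.1 to 57.9] and a q-value of 7.39e-24. Within the gene, chr1:24915001-24920000 carried 7 interactions with contact counts from 20 to 33 and distances from 160 to 760 kb. Its G+C content of 56.5% was the highest among the RUNX and ETS bins with at least 4 interactions. This bin held no HLF motif, and the nearest lay 4413 bases past its edge, in the next bin (printed above). From it, interactions reached the start of CLIC4, with 27 contacts [17.8 to 39.3], and IFNLR1 at 760 kb, with 20 [12.2 to 30.9].

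ERG, an ETS factor needed to maintain hematopoietic stem cells, had the most interactions and the strongest. It lies on the minus strand at chr21:38380027-38661780. Of its 54 interactions, 35 led upstream, toward ETS2 and beyond, 11 led downstream and 8 stayed within the gene. Contact counts ran from 13 to 118 with a median of 22. A high number thus did not go with high contact counts throughout. Of the 54 interactions, 22 had an HLF motif in at least 1 bin, against 66.8% in the list.

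The strongest joined chr21:38435001-38440000 to chr21:38495001-38500000, 60 kb apart. Its contact count was 118 [97.7 to 141], at rank 55 of the list, with a q-value of 4.36e-76 and 4.54 times the median at the same distance. The second bin contains the canonical start of ERG, and the first lies about 61 kb downstream of it, within the gene. From the bin with the start, another interaction of 515 kb reached chr21:39010001-39015000 in the noncoding gene LINC02940, with 61 contacts [46.7 to 78.4]. Intervals of these 2 ERG interactions did not overlap.

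The bin at 38435001 was the busiest of ERG, with 10 interactions whose contact counts were 118, 60, 38, 30, 30, 24, 22, 22, 21 and 20. The longest of them, of 1825 kb, ended in DSCAM with 22 contacts [13.8 to 33.3]. It held no HLF motif, but the palindrome TTACGTAA at chr21:38440100-38440107 lay 100 bases past its edge, in the neighboring bin, which had 7 interactions of its own. That motif was counted for the neighboring bin only, and whether it has a part in the contacts of the bin at 38435001 was not tested. Of the 4 bins with a transcript start of ERG, 3 had interactions. The canonical one and one at the upstream end of the gene had 3 each, and another had 1. No such bin had any at the RUNX genes, ETS1 and SPI1. A bin within 10 kb of a start was present in 30 of the 54 interactions of ERG. The number was 10 of 11 at RUNX3, 10 of 31 at RUNX1 and 1 of 7 at RUNX2.

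ETS2, which lies upstream of ERG on the plus strand, is a short gene of 19.77 kb that acts downstream of RAS and MAPK signaling. Its strongest interaction ran 115 kb from the bin with its start, chr21:38805001-38810000, to chr21:38920001-38925000, with 71 contacts [55.5 to 89.6], a q-value of 4.43e-38 and 2.84 times the median at that distance. The 10 contact counts of ETS2 were 71, 49, 38, 30, 27, 24, 22, 21, 20 and 15. All of its interactions stayed within 375 kb, and 9 had an HLF motif in at least 1 bin, against 66.8% in the list. The canonical starts of ERG and ETS2 were the only canonical starts among the 10 genes whose bins had interactions.

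ERG and ETS2 were also joined to each other by 3 interactions. The first, from the busiest ERG bin to chr21:38810001-38815000 in ETS2, had 38 contacts [26.9 to 52.2], the second from the bin with the palindrome had 22 [13.8 to 33.3] and the third had 15 [8.39 to 24.7]. They lay 335 to 375 kb apart. Both genes further shared 5 partner bins beyond ETS2, which start at 38860001, 38920001, 38995001, 39010001 and 39015001, the last 3 in LINC02940. An intergenic bin at 39145001 had 6 interactions with ERG, of 13 to 34 contacts, and none listed with ETS2. From the downstream flank of ERG to that bin, a stretch of 780.0 kb, 101 interactions had both bins inside. They were 14.4% of the 703 on chromosome 21, and 56 of them touched neither gene. Chromosome 21 as a whole had 15.1 listed interactions per Mb. Since the stretch was drawn to end at a partner bin of ERG, its number was partly set by that choice.

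FLI1 and ETS1 lie next to each other on chromosome 11, transcribed away from each other. FLI1, the close relative of ERG, is a regulator of megakaryocytes and stem cells, and ETS1 acts in lymphocytes. FLI1 had 19 interactions, of which 14 led upstream, and ETS1 had 16, with 8 on each side and none within the gene. Contact counts were 13 to 45 at FLI1 and 14 to 33 at ETS1. With flanks of 10 kb, ETS1 had the lowest top contact count of the 9 listed genes, with an interval that overlapped that of RUNX2 [27.7 to 53.3]. This rank depended on the flank. Without flanks RUNX3 also had 33, and with flanks of 25 kb ETS1 had 45 and RUNX2, with 39, was the lowest of these 9.

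At FLI1 the strongest interaction joined chr11:128610001-128615000 to chr11:128680001-128685000 over 70 kb, with 45 contacts [32.8 to 60.2] and a q-value of 8.11e-23. Both bins lie in another annotated gene, and neither touches the body of FLI1. Without flanks FLI1 had 13 interactions, of at most 34 contacts. The second bin lies in the upstream flank of FLI1, holds the 3 FLI1 motifs printed above and had 6 interactions, all leading upstream with 21 to 45 contacts. The other busy FLI1 bins, at 128750001 with 6 and at 128755001 with 5, lie about 58 to 63 kb past the canonical start. Neither held a motif. The longest FLI1 interaction, of 2395 kb, also started in the upstream flank and ended in TIRAP, with 27 contacts [17.8 to 39.3].

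At ETS1, 1 bin stood out. The intronic bin chr11:128490001-128495000, about 95 kb past the canonical start, took part in 8 of the 16 interactions, 3 upstream and 5 downstream, with 14 to 33 contacts. Among them was the strongest, to 128625001 over 135 kb, with 33 contacts [22.7 to 46.3] and a q-value of 1.44e-12. This bin held an HLF motif, and none of the 4 bins with an ETS1 transcript start had an interaction. The longest, of 2330 kb, ended in FAM118B with 27 contacts [17.8 to 39.3].

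ETS1 and FLI1 were linked by 3 interactions, with 32 [21.9 to 45.2], 28 [18.6 to 40.5] and 21 [13.0 to 32.1] contacts over 215, 230 and 160 kb. The bin at 128610001 was a partner of both. Of the 6 interactions between members of the 2 families, these 3 and those of ERG and ETS2 made up all, and none joined a RUNX gene to an ETS gene. For RUNX2 and RUNX3 none could be listed, since no ETS gene examined here lies on their chromosomes. RUNX1 shares chromosome 21 with ERG and ETS2, and only its bins within 3 Mb of them could be listed with them. When the flanks of the genes were left out, 3 of the 6 remained.

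ETV6, an ETS repressor needed for bone marrow hematopoiesis, had 44 interactions on chr12:11649674-11895377, of which 20 stayed within the gene, 8 led upstream and 16 downstream. Contact counts ran from 12 to 58, with a median of 23. The strongest joined chr12:11650001-11655000, near the 5′ end and with a noncoding transcript start, to chr12:11855001-11860000 over 205 kb, with 58 contacts [44.04 to 74.98], a q-value of 4.31e-36 and 2.42 times the median at that distance. ETV6 and RUNX1 were the genes with the most interactions inside themselves.

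The ETV6 bin chr12:11760001-11765000, in the middle of the gene, had 14 interactions, the most of any bin of the 10 genes and rank 342 of 53535 bins. Contact counts of the 14 were 44, 41, 31, 25, 23, 23, 21, 21, 21, 20, 19, 17, 17 and 15. Of these, 5 stayed within ETV6 and 8 led downstream, up to 2495 kb away, among them 1 of 925 kb to the bin at 12685001 of the cell cycle inhibitor gene CDKN1B and GPR19, with 21 contacts. The bin held no HLF motif, and the nearest lay 17326 bases away. Of the other ETV6 bins with at least 5 interactions, those at 11875001 (9 interactions, 2 motifs), 11655001 and 11855001 (6 interactions and 1 motif each) held motifs, while the one at 11775001 with 7 interactions held none. The longest interaction of the 10 genes, of 2860 kb, ran from 11855001 to KLRG1 with 12 contacts [6.20 to 20.96] and a q-value of 0.00924, close to the limit of the list.

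ELF1, an ETS activator expressed in lymphoid cells, had 25 interactions with contact counts from 13 to 61 and the highest median after ETS2, 25. The strongest joined chr13:40980001-40985000 to chr13:41050001-41055000 over 70 kb, with 61 contacts [46.7 to 78.4], a q-value of 1.91e-37 and 2.35 times the median at that distance. The first bin contains starts of shorter ELF1 transcripts and the second holds the ELF1 motif printed above. These bins and the one at 41025001 had 5 interactions each. Of these 3 bins, 1 held a motif. Among all ELF1 bins with interactions, 9 of 16 (56.2%) held one, against 31.5% of all bins with interactions, and the share at ETS2 was similar, 57.1%. The longest ELF1 interaction, of 1555 kb, ended in LHFPL6 with 17 contacts [9.90 to 27.2].

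SPI1 encodes PU.1, the ETS factor that sets myeloid and B-cell fate. No bin of SPI1 or its flanks, at chr11:47354860-47378547, took part in a listed interaction. With wider margins, 1 interaction was listed within 25 kb, 3 within 50 kb and 5 within 100 kb. In addition, 7 interactions spanned the gene without touching it. The nearest bins with interactions lay 14.9 kb away in MYBPC3 and 36.5 kb away on the other side, at PSMC3 and SLC39A13. Of the 10 bins of SPI1 and its flanks, 3 held an HLF motif. Its known upstream regulatory element lies closer to the promoter than the smallest distance in the list, so that a contact between them could not be listed, and the smallest contact count listed between 50 and 250 kb was 7.

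**Figure D4:**
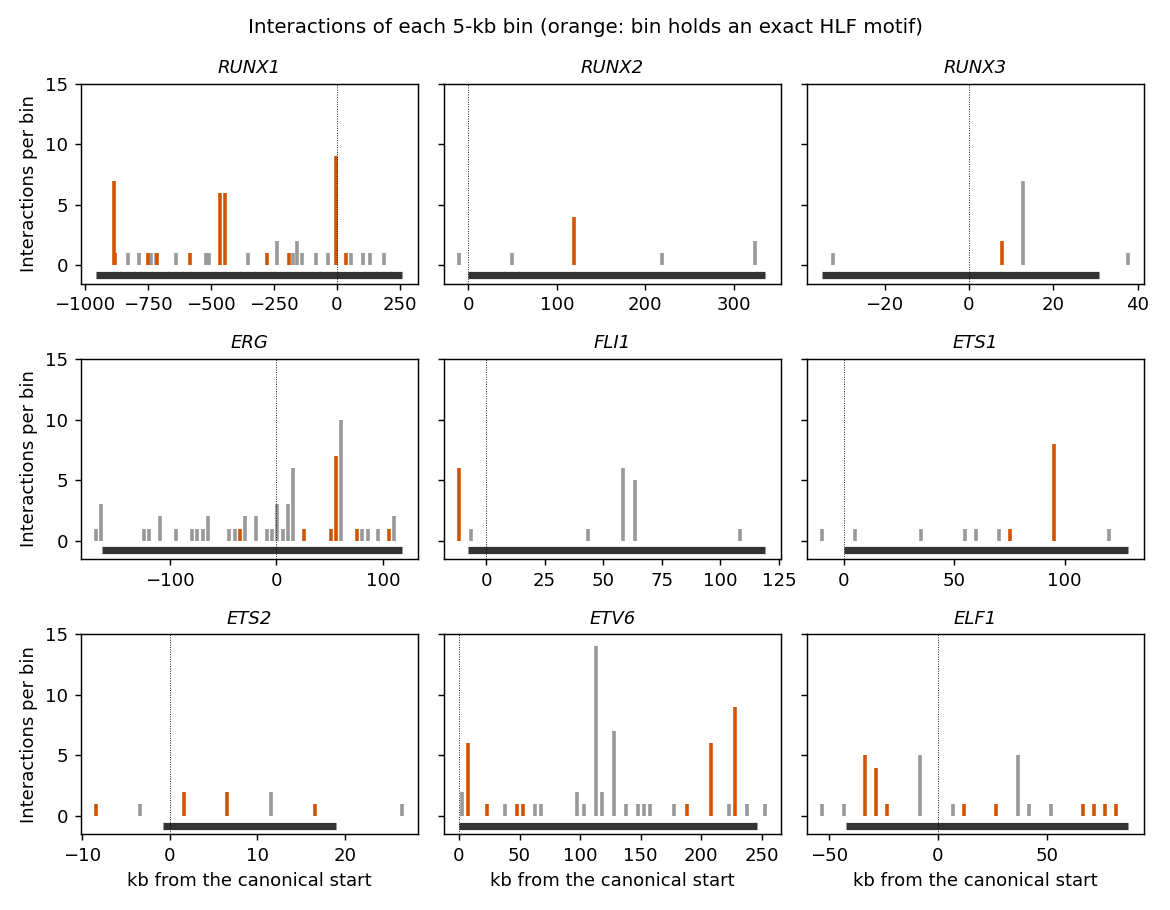
Number of interactions of each 5-kb bin (vertical axis) along the 9 listed genes, by distance from the canonical start in kb in the direction of transcription (horizontal axis). Orange bars are bins with an exact HLF motif, grey bars bins without one, black bars below mark the gene bodies and dotted lines the canonical start. The tallest bar, in ETV6 (14), and the tallest of ERG (10) are grey, while the 4 tall bars of RUNX1 are orange.

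Across the 10 genes, 131 bins took part in interactions, and 42 of them held an HLF motif, which is 32.1% (Wilson 95% interval, 24.7 to 40.5) against 31.5% of all bins with interactions. In the 434 bins of these genes and flanks without interactions the share was 22.4% (18.7 to 26.5). Bins with 5 to 9 interactions held a motif in 11 of 18 cases, or 61.1% (38.6 to 79.7), against 49.7% over all such bins in the list. With at least 10 interactions there were 2 bins, those of ERG and ETV6, and 0 of them held one, against 66.7%. The share of interactions with a motif in at least 1 bin was 64.0%, against 66.8%. Pooled over the 10 genes, the shares of all bins and of interactions were close to the list as a whole. Single genes departed from it in both directions. A motif in at least 1 bin was found in 30 of 31 interactions at RUNX1 and 9 of 10 at ETS2. At ERG it was found in 22 of 54 and at FLI1 in 9 of 19.

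Of the 131 bins, 20 (15.3%) had at least 5 interactions, against 8.60% in the list, and 2 (1.53%) had at least 10, against 2.10%. The families' own motifs were searched in the same way. The RUNX motif TGTGGTTT was found in 38.9% of the 131 bins and in 43.1% of the 109 partner bins, against 35.4% of all bins with interactions. The ETS motif CCGGAAGT was found in 3.05% and 4.59%, against 2.77%. Median G+C content was 42.0% in the 131 bins and 41.1% in all. The 2 bins of an interaction shared at least 1 stretch of 31 bases in 27 of the 211 interactions and at most 17 stretches, with a median of 0. The largest value, 17, was that of the strongest RUNX3 interaction and of the RUNX2 interaction with SUPT3H, and its part in the contact counts was not tested.

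The part that starts of the genes had in these contacts depended on how a start was defined. A bin with a transcript start of the gene itself was present in 24 of the 211 interactions, or 11.4% (7.76 to 16.4), while 178 touched a gene elsewhere in its body and 13 in its flanks. These numbers count 4 interactions between a pair of the genes in 2 classes. With any coding gene start counted, the number was 40 (19.0%), against 24.0% in the list. Starts of other coding genes in the partner bin were met in 11 interactions, 1 of them with KCNJ6, a potassium channel gene, and ERG, with 23 contacts [14.6 to 34.5] over 705 kb. A wider definition changed the share: 129 of the 211 interactions, or 61.1%, had a bin within 10 kb of a start of the gene. The paper, too, used 10 kb around transcription start sites to define putative promoter anchors. Neither share of own starts was set against the list. Only the listed bins were searched for starts, not neighboring bins merged with them.

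The remaining ETS genes and the partners of RUNX were taken as a further list of 25 genes. Of these, 19 had at least 1 interaction (76.0%, against 64.5% of protein-coding genes), with a median of 2, and 4 had at least 10. Of protein-coding genes, 10.1% had at least 10, and of those of at least 100 kb 31.9% had. Among the 4, ELF2, CBFA2T2 and CBFA2T3 are longer than 100 kb. All 4 genes of the RUNX complex and the ETO family were among the 19. Those with the most were ELF2, a relative of ELF1, with 30 interactions of up to 65 contacts, CBFA2T2 with 22, CBFB with 12, CBFA2T3 with 11 and ETV3L with 7. No interaction was listed at FEV, ETV2, ETV3, ETV5, ELK1 and SPDEF. Their median contact count of 24 and median distance of 252.5 kb, over 108 interactions, were close to those of the RUNX and ETS genes described above.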

How the data were processed

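HiChIP of the fusion in HAL-01 without wild-type TCF3 (2 biological replicates, 1 condition) was analysed as the list of interactions deposited by the authors. Per the methods and the submitters' processing notes, reads were trimmed with Trim Galore 0.6.6, replicates were merged, and reads were aligned to hg38 with BWA. Contacts were taken with pairtools without its dedup step, and MACS2 peaks served as reference for FitHiChIP at 5 kb (50 kb to 3 Mb, q-value under 0.01). The version of FitHiChIP is not given in the sources used here. Contact counts and summed counts were deposited by the authors as raw counts of read pairs. The p-value and q-value deposited by the authors come from the caller, and the deposited fraction gives the share of strong bin pairs in a merged group. All columns of sample values were used as the authors' merged values.

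Gene bodies, transcript starts and exons came from GENCODE release 44 and sequence from hg38, with 0 bins past a chromosome end. Computed here were numbers of interactions, their place, distance and rank, exact Poisson and Wilson 95% intervals, exact motif matches and shared 31-mers. No test was run, since 1 merged library of 1 condition leaves nothing to compare over samples. The depth is the sum of listed contact counts, and precision is that of counting alone.

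Members and gene lists were chosen with earlier results of these data known. Named were all 10 genes, with the strongest and longest interaction and busiest bin of each and the genes at the other bin, and from the further list the 5 genes with the most interactions and those with none. The other interactions and bins in the text were picked with their values known. Alternatives covered the flank, the q-value, the contact count, the distance, the definition of a start, the motif and the measure of strength. Scripts were tested on simulated data. Tools were pysam 0.24.0, samtools 1.23.1, scipy 1.17.1, pandas 2.3.3, numpy 2.4.6 and matplotlib 3.10.9 in Python 3.11.15.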

Additional observations from a re-analysis of the deposited data

How the results depend on the processing

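The number of interactions of the 10 genes fell from 211 to 139 with a q-value under 1e-05, and those between members from 6 to 3 without flanks. The share of interactions with a start of the gene in a bin, 11.4%, became 7.58% with starts of coding transcripts only and 61.1% with bins within 10 kb of a start. The share of bins with an HLF motif, 32.1%, became 0.763% with TTACGTAA only. Of the 191 further values computed for single genes, 10 moved: 8 numbers by over 1.5 times and 2 contact counts beyond the interval of the value in the report. With a q-value under 1e-05, ERG had 32 interactions and ETV6 28, and with at least 20 contacts ETV6 had 28, FLI1 12 and RUNX2 3, with 2 left at its busiest bin. Flanks of 25 kb gave SPI1 1. The interaction with the largest sum over its merged group had 29 contacts at RUNX1 and 44 at ETV6. Canonical transcripts in place of whole genes, an alternative chosen after seeing the data, left 166 interactions, with 12 at RUNX1, 38 at ERG and 17 at ELF1. Counting each merged group once, also chosen after seeing the data, left 211. No paired analysis was possible because the replicates were merged before calling, so that neither could be left out. Depth limits the low contact counts, whose intervals overlap those of most other interactions.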

Other observations

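Some partner bins of these genes had more interactions than the genes' own bins. The partner of the longest ELF1 interaction, in LHFPL6 at chromosome 13 position 39450001, had 31 interactions, of which 1 was with ELF1. A bin in COG6, a subunit of the Golgi tethering complex, at 39685001 had 15, of which 3 were with ELF1. On chromosome 21, a bin in KCNJ6 at 37865001 had 20, of which 2 were with ERG, and a bin in KCNJ15 at 38290001 had 11 and was a partner of both ERG (2) and RUNX1 (1). The LINC02940 bins at 39010001 and 39015001, partners of ERG and ETS2, had 13 each. In all, 12 partner bins had at least 10 interactions, and 7 of them held an HLF motif, or 58.3% (Wilson 95% interval, 32.0 to 80.7), against 66.7% of all bins with at least 10 interactions in the list. These bins were chosen after their values were seen.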
